A study of Saccharomyces cerevisiae with 6 samples.

Results

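The genes described here encode 10 enzymes of the pentose phosphate pathway in Saccharomyces cerevisiae. They were taken by name from a table of 7125 genes: ZWF1, SOL3, SOL4, GND1, GND2, RKI1, TKL1, TKL2, TAL1 and NQM1. RNA came from a kap114 knockout strain and from a wild-type strain, both of the S288C background and both cultured with 1.5 M NaCl in YPD, which is rich in nutrients and glucose. Poly(A)-selected RNA was sequenced by strand in 3 libraries of each strain, and the comparison asks how the strains differ in high salt. KAP114 encodes a karyopherin, a nuclear import receptor whose cargoes include histones and the TATA-binding protein. Both strains were in salt, so no response to salt was measured. Whether the libraries of 1 strain stem from different cultures is not stated in the labels, so a p-value here reflects the spread among these libraries alone, and that spread may be technical. Libraries carry consecutive sample numbers within each strain, so sample order and strain cannot be told apart. The library names of both strains also carry the term TAF1, which the labels do not explain, so a feature that both strains share may not be described here.

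The pentose phosphate pathway branches from glycolysis at glucose 6-phosphate. Its oxidative branch makes NADPH, the reducing agent of biosynthesis and of defence against oxidants, and releases carbon dioxide to give ribulose 5-phosphate. Its non-oxidative branch exchanges carbon units between sugar phosphates, which yields ribose 5-phosphate for nucleotides and erythrose 4-phosphate for aromatic amino acids, and returns the rest to glycolysis. Budding yeast has pairs of genes for 4 of the steps. In each pair one isoenzyme is known to carry most of the activity during growth on glucose (SOL3, GND1, TKL1 and TAL1, here called major) and the other little of it (SOL4, GND2, TKL2 and NQM1, here called minor).

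In such bulk RNA, fewer cells with a transcript and less of it per cell cannot be told apart. In the knockout the major isoenzymes rose, while 3 of the 4 minor isoenzymes and ZWF1 fell. TKL1 rose 5.36-fold, SOL3 3.20-fold, GND1 2.87-fold and TAL1 2.05-fold, whereas TKL2 fell 2.00-fold, NQM1 1.90-fold and GND2 1.71-fold. ZWF1, for the first enzyme of the pathway, fell 2.44-fold. All 10 genes passed the filter on low counts and were called at the 0.05 threshold on edgeR's quasi-likelihood p after Benjamini-Hochberg adjustment, 6 higher and 4 lower in the knockout. Among the 6080 tested genes 64.3% passed, 34.3% higher and 30.0% lower, so a call alone is common in this comparison. The TPM values of knockout and wild type (a level per gene length, scaled to the same total in each library) did not overlap for any of the 10 genes, which also held for 74.3% of tested genes. The median log2 fold change of the 10 genes, knockout over wild type, was 0.65, against 0.01 over all tested genes, and it mixes the 2 directions. The calls of the minor isoenzymes were less stable than the others: without knockout library 3, or without any 1 wild-type library, ZWF1 was the only gene of the 10 still called lower, and without knockout library 2 the number was 3. Calls over all genes also fell in these fits, from 3911 with all libraries to 2819 without knockout library 3 and 3402 without knockout library 2. Without wild-type libraries 1 to 3 they were 2960, 3304 and 3152. Whether the loss is particular to these isoenzymes was not tested.

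The upstream sequences of these genes hold letters that match known regulators of the pathway and of stress. Stb5 is a zinc cluster factor known to activate pentose phosphate genes under oxidative stress, and Msn2 and Msn4 are the general stress activators that bind the stress response element. The 300 bases from 400 to 101 before each start codon were searched on both strands for CGGNNTTA, a Stb5 site, and for AGGGG, the core of the stress response element (CCCCT when read on the other strand). No matches overlapped in the 10 genes. A Stb5 match was found for 5 of the 10 genes (ZWF1, SOL3, GND1, GND2 and TAL1), against 9.43% of 5968 windows of protein-coding genes, and GND1 and TAL1 had 2 matches each, as did 0.637% of windows with 2 or more. Of the genes with a Stb5 match, SOL3, GND1 and TAL1 rose while ZWF1 and GND2 fell, so having one did not separate the directions. A stress element match was found for 7 of the 10 genes, against 23.6% of windows. These were 3 of the 4 genes that fell (ZWF1, GND2 and NQM1) and 4 of the 6 that rose (SOL4, RKI1, TKL1 and TAL1), so having a match did not separate the directions. ZWF1, GND2 and NQM1 had 2 matches each, against 4.11% of windows with 2 or more, and SOL4, RKI1, TKL1 and TAL1 had 1 each, among them TKL1, which rose most. TKL2, which fell, had no match of either motif in this window.

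The windows of ZWF1 and of the 3 pairs whose isoenzymes moved in opposite directions are printed here, with and without matches. SOL3 (1 Stb5 match) and SOL4 (1 stress element match), which both rose, and RKI1 are not printed. They lie in build R64 at chrVIII:470560-470859 (plus strand, GND1), chrVII:1004224-1004523 (plus strand, GND2), chrXVI:694939-695238 (minus strand, TKL1), chrII:476538-476837 (minus strand, TKL2), chrXII:837458-837757 (minus strand, TAL1), chrVII:581537-581836 (minus strand, NQM1) and chrXIV:198044-198343 (minus strand, ZWF1). Each is written 5′ to 3′ towards the gene, with motif matches in capitals.
GND1: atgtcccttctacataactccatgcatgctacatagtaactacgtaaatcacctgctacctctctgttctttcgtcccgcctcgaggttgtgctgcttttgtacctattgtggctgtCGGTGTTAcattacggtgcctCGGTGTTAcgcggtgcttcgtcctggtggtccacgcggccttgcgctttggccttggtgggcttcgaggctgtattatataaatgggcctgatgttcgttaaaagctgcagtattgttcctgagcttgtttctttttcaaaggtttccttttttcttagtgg
GND2: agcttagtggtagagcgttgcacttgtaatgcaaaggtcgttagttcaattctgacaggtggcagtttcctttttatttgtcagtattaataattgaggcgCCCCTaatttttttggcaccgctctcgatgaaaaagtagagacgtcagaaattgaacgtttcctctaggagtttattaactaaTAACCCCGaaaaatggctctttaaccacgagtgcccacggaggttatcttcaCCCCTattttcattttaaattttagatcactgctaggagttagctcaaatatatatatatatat
TKL1: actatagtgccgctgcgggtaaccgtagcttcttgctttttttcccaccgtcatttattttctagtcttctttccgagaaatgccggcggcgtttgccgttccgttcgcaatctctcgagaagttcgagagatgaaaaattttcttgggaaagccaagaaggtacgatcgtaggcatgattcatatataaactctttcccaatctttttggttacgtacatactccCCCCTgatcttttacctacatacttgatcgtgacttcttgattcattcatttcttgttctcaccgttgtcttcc
TKL2: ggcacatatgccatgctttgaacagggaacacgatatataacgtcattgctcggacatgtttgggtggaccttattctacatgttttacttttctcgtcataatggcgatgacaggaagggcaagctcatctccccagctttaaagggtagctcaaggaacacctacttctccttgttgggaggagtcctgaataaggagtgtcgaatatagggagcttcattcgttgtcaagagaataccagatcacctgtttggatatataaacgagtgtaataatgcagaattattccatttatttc
TAL1: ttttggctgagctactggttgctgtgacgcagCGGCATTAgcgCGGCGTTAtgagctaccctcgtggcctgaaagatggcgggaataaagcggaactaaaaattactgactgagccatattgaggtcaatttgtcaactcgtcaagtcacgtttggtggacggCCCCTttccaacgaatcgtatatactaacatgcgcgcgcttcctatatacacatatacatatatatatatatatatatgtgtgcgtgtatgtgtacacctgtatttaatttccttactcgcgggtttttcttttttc
NQM1: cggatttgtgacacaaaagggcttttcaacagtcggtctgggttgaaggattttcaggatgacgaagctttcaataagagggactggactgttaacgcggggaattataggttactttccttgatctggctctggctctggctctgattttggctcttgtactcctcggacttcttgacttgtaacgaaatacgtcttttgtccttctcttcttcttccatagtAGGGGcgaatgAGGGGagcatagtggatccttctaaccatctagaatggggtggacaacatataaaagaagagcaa
ZWF1: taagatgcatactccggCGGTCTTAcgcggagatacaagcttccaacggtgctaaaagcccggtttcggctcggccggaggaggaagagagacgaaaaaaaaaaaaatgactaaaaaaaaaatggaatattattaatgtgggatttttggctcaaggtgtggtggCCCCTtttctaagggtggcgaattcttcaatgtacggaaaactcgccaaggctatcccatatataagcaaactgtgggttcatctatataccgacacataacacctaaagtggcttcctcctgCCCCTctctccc
GND1 and TAL1, which rose, carry paired Stb5 matches, at 283 and 262 bases before the start codon of GND1 and at 368 and 357 before that of TAL1. GND2 carries 1, at 216 bases, between stress element matches at 299 and 164 bases. TKL1 carries a stress element match at 174 bases and TAL1 one at 237 bases. NQM1 carries stress element matches at 176 and 165 bases, and ZWF1 at 235 and 112 bases with a Stb5 match at 383 bases. Part of the window of GND1 belongs to the neighbouring feature YHR182W, that of GND2 overlaps a tRNA gene, and that of TKL1 overlaps YPR074W-A. Of the windows not printed, that of SOL3 overlaps MPC2 and that of SOL4 overlaps CPD1. A match is a run of letters and was not tested for binding.

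**Figure D1:**
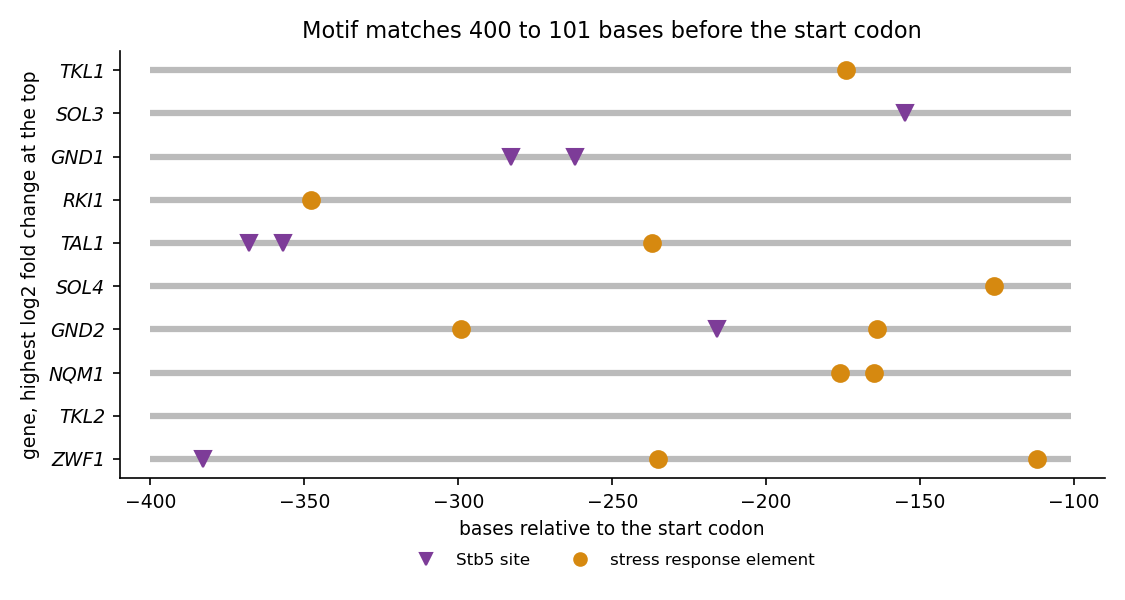
Matches of the Stb5 site (triangles) and of the stress response element (circles) in the window from 400 to 101 bases before the start codon; the x axis gives bases relative to the start codon and genes run from the highest log2 fold change at the top to the lowest at the bottom. The genes with 2 stress element matches, GND2, NQM1 and ZWF1, lie in the lower part, and the genes with 2 Stb5 matches, GND1 and TAL1, in the upper part. TKL1, SOL4, RKI1 and TAL1, which rose, have 1 stress element match each, and TKL2 has none. ZWF1 and GND2, which fell, have 1 Stb5 match each, as does SOL3, which rose.

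How far reads were shared between paired genes was not tested, and only their coding sequences were compared. The coding sequences of GND2 and GND1 were 79.1% identical, those of TKL2 and TKL1 69.4%, those of NQM1 and TAL1 68.5% and those of SOL4 and SOL3 58.5%. The longest run of bases shared within a pair was 20 in GND2 and GND1, 17 in TKL2 and TKL1, 17 in NQM1 and TAL1, and 8 in SOL4 and SOL3, and no run of 50 bases was shared by any pair. No source used here gives the read length. The longest shared run is shown in capitals within 60 bases of each gene, chrVII:1004649-1004708 in GND2 and chrVIII:470976-471035 in GND1, both on the plus strand.
GND2: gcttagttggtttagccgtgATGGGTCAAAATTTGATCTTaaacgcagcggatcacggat
GND1: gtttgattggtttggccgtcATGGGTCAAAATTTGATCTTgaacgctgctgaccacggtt
The 60 bases differ at 10 positions, all outside the shared run. Each of the 10 genes has 1 exon in the table and the same start and end in the reference annotation. GND1 is overlapped on the opposite strand by YHR182C-A, which had at most 0.215% of the counts of GND1. TKL2 is overlapped on its own strand by YBR116C, which had 860 to 2345 counts and at most 8.10% of those of TKL2, so a small part of the reads of TKL2 may be counted there.

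KAP114 had 0 counts in each knockout library, against 257, 336 and 312 counts in wild-type libraries 1 to 3. Library totals were 34685666 to 38540115 counts in the knockout and 33638728 to 37893192 counts in the wild type, and the smallest value of the 10 genes was 275 counts, for RKI1 in wild-type library 1. RDN37, the locus of the ribosomal RNA precursor, took a share of counts of 9.05% to 12.3% in the knockout and 3.69% to 4.54% in the wild type. Since RDN37 counts towards the TPM total, it lowers the TPM of every other gene more in the knockout, and its part in the differences was not tested. TPM divides by gene length, so the share of RDN37 in TPM is not its share of counts, and was not computed. Ratios within a library are not touched by RDN37.

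The oxidative branch begins with glucose-6-phosphate dehydrogenase, which is encoded by ZWF1 (YNL241C, chromosome XIV, 196426 to 197943, minus strand) and makes the first NADPH. ZWF1 had 511, 271 and 325 TPM in knockout libraries 1 to 3, against 1048, 859 and 916 TPM in wild-type libraries 1 to 3. Every knockout library lay below every wild-type library, and the highest knockout value, in library 1, was still well under the lowest wild-type one. The raw counts were 27704, 14599 and 19273 in the knockout, against 58923, 52284 and 49973 in the wild type. The log2 fold change was -1.28 ± 0.27 (SE), and edgeR's quasi-likelihood test gave an adjusted p of 0.00551. This was the largest decrease among the 10 genes, and it kept its call under every alternative run, with edgeR adjusted p of up to 0.0304 when 1 library was left out.

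The next step, the opening of the lactone by 6-phosphogluconolactonase, is encoded by SOL3 (YHR163W, chromosome VIII, 423724 to 424473, plus strand) and SOL4 (YGR248W, chromosome VII, 985972 to 986739, plus strand). SOL3, the major form, had 154, 240 and 213 TPM in the knockout, against 54.7, 82.4 and 63.0 TPM in the wild type. The groups were far apart, and the log2 fold change was 1.68 ± 0.21 (SE; edgeR adjusted p = 0.00114). SOL4 had 152, 132 and 134 TPM in the knockout, against 121, 121 and 123 TPM in the wild type. The wild-type libraries lay close together, and the knockout lay slightly above them in every library. SOL4 had a log2 fold change of 0.27 ± 0.10 (SE), which passed narrowly (edgeR adjusted p = 0.0443). This call ended with scaling by library totals only, at a log2 fold change of 0.12 (edgeR adjusted p = 0.281), with RLE scaling (0.0547), with no filter on low counts (0.0504), with limma on TPM (0.138 and 0.139) and without knockout library 3 or any 1 wild-type library (0.0943 to 0.132).

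The third step, 6-phosphogluconate dehydrogenase, makes the second NADPH and ribulose 5-phosphate. Its major form is GND1 (YHR183W, chromosome VIII, 470960 to 472429, plus strand), which had 600, 937 and 735 TPM in the knockout, against 205, 362 and 268 TPM in the wild type. Wild-type library 2 was the highest of its group, and the lowest knockout library lay clearly above it. The log2 fold change was 1.52 ± 0.27 (SE; edgeR adjusted p = 0.00284). GND2, the minor form (YGR256W, chromosome VII, 1004624 to 1006102, plus strand), moved the other way, with 119, 56.4 and 83.9 TPM in the knockout, against 163, 164 and 137 TPM in the wild type. Knockout library 1 came nearest to the wild type, and the groups did not overlap. GND2 had a log2 fold change of -0.77 ± 0.26 (SE; edgeR adjusted p = 0.0316), a call that ended without knockout library 3 or any 1 wild-type library (0.0534 to 0.0950). The genes of both oxidative pairs are linked on their chromosomes: 17.9 kb separate SOL4 and GND2, whose changes had opposite signs, and 46.5 kb separate SOL3 and GND1, which both rose.

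**Figure D2:**
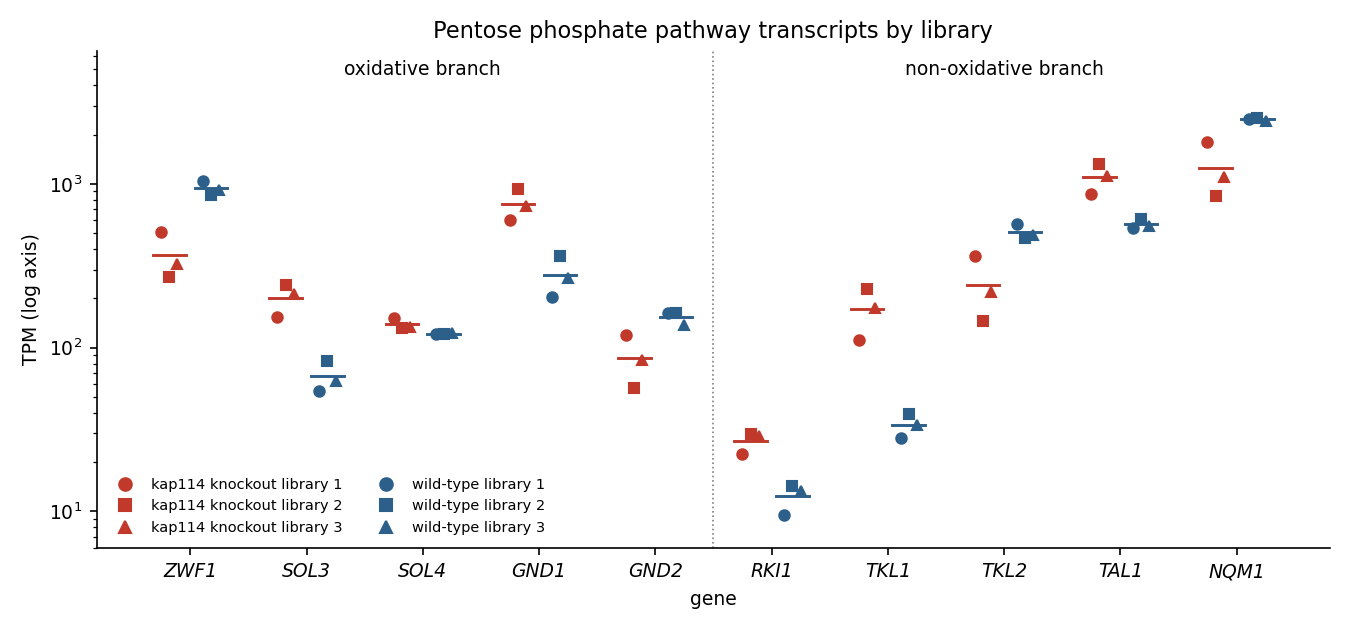
TPM (log axis) of each of the 10 genes in each library, knockout on the left and wild type on the right of each pair of columns, with a horizontal line at the mean of the 3 libraries and the dotted line between the branches. No gene has overlapping groups, and SOL4 has the smallest gap on the log axis, with 132 to 152 TPM in the knockout and 121 to 123 TPM in the wild type.

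In the non-oxidative branch, ribose-5-phosphate isomerase converts ribulose 5-phosphate to ribose 5-phosphate. Its gene RKI1 (YOR095C, chromosome XV, 503552 to 504328, minus strand) had 22.4, 29.7 and 28.9 TPM in the knockout, against 9.56, 14.3 and 13.3 TPM in the wild type. It was the least abundant of the 10 genes in both strains, with 622, 819 and 876 counts in the knockout and 275, 444 and 370 counts in the wild type. RKI1 rose 2.30-fold, with a log2 fold change of 1.20 ± 0.18 (SE; edgeR adjusted p = 0.00161).

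Transketolase moves a 2-carbon unit between sugar phosphates and is encoded by TKL1 (YPR074C, chromosome XVI, 692796 to 694838, minus strand) and TKL2 (YBR117C, chromosome II, 474392 to 476437, minus strand). TKL1 had 112, 229 and 175 TPM in the knockout, against 28.2, 39.5 and 33.8 TPM in the wild type. This was the largest change of the 10 genes in either direction, with a log2 fold change of 2.42 ± 0.28 (SE; edgeR adjusted p = 0.00114). TKL2 had 362, 146 and 217 TPM in the knockout, against 566, 466 and 489 TPM in the wild type. The knockout libraries spread widely, over more than the gap between the highest of them and the wild type. TKL2 had a log2 fold change of -1.0013 ± 0.33 (SE; edgeR adjusted p = 0.0291), and the call ended without knockout library 3 or any 1 wild-type library (0.0579 to 0.0963).

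Transaldolase moves a 3-carbon unit and is encoded by TAL1 (YLR354C, chromosome XII, 836350 to 837357, minus strand), while NQM1 (YGR043C, chromosome VII, 580435 to 581436, minus strand) encodes a second, minor transaldolase. TAL1 had 873, 1324 and 1110 TPM in the knockout, against 539, 607 and 553 TPM in the wild type. The groups were well separated, and the log2 fold change was 1.03 ± 0.21 (SE; edgeR adjusted p = 0.00444). NQM1 had 1801, 841 and 1095 TPM in the knockout, against 2475, 2535 and 2435 TPM in the wild type. The wild-type libraries lay close together, whereas the knockout libraries differed by more than a factor of 2 between library 1 and library 2. NQM1 had a log2 fold change of -0.93 ± 0.30 (SE; edgeR adjusted p = 0.0292), and the call ended on leaving out any single library except knockout library 1 (0.0534 to 0.109).

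**Figure D3:**
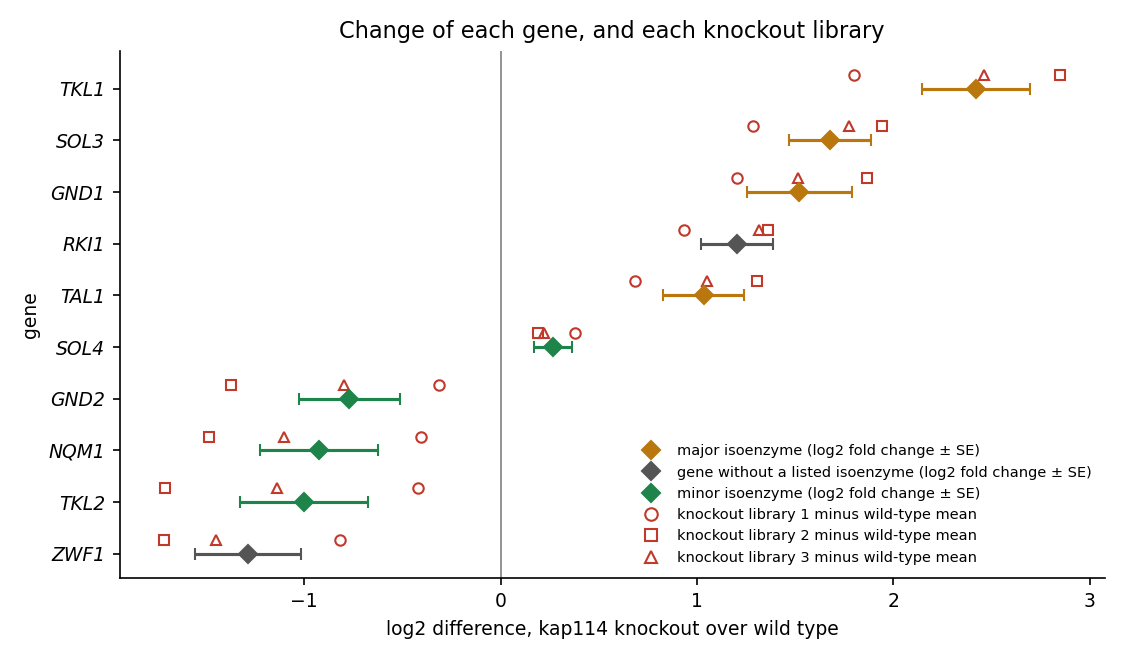
Log2 fold change of each gene, knockout over wild type, from edgeR (diamonds, bars: SE), with the log2 CPM difference of each knockout library from the wild-type mean (open symbols); genes run from the highest to the lowest change. The 4 major isoenzymes and RKI1 lie at 1.03 or above, SOL4 at 0.27, and GND2, NQM1, TKL2 and ZWF1 at -0.77 or below.

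Set against each other within a library, the balance of the isoenzymes differed between the strains in the same direction in all 4 pairs. TKL2 was 3.23, 0.640 and 1.24 times TKL1 in knockout libraries 1 to 3, against 20.1, 11.8 and 14.5 times in wild-type libraries 1 to 3. Wild-type transketolase transcripts were thus nearly all TKL2, at 93.7% ± 1.53 of the TPM of the pair, while TKL2 held 56.9% ± 18.7 in the knockout (SD, n = 3). NQM1 was 2.06, 0.635 and 0.987 times TAL1 in the knockout, against 4.59, 4.17 and 4.41 times in the wild type. SOL4 was 0.988, 0.549 and 0.631 times SOL3 in the knockout, against 2.21, 1.47 and 1.95 times in the wild type. In these 3 pairs the minor isoenzyme was the more abundant one in every wild-type library. In the knockout this held only for TKL2 in libraries 1 and 3 and for NQM1 in library 1.

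GND1 was the more abundant gene of its pair in all 6 libraries. GND2 was 0.199, 0.0602 and 0.114 times GND1 in the knockout, against 0.795, 0.453 and 0.511 times in the wild type. Its share of the pair was 10.8% ± 5.47 in the knockout and 36.4% ± 6.94 in the wild type (SD, n = 3 each). The share of NQM1 was 52.0% ± 14.4 in the knockout and 81.4% ± 0.723 in the wild type, and that of SOL4 was 41.3% ± 7.47 in the knockout and 64.8% ± 4.76 in the wild type (SD, n = 3 each).

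The difference in the log2 ratio of minor to major isoenzyme, knockout minus wild type, was -3.46 ± 0.71 for transketolase, -2.36 ± 0.56 for 6-phosphogluconate dehydrogenase, -2.01 ± 0.50 for transaldolase and -1.40 ± 0.31 for 6-phosphogluconolactonase (SE). The groups did not overlap in any pair. How often ratios of other gene pairs separate was not counted, and TPM did not overlap for 74.3% of single tested genes. An exact two-sided permutation test over libraries gave p = 0.1 for each pair and 0.1 after adjustment over the 4 pairs. This is the smallest value that the test allows with 3 against 3 libraries, so this test cannot pass 0.05 here. The ratio for 6-phosphogluconolactonase moved mainly through SOL3, since SOL4 differed little between the strains, whereas in the other pairs both genes changed, in opposite directions.

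**Figure D4:**
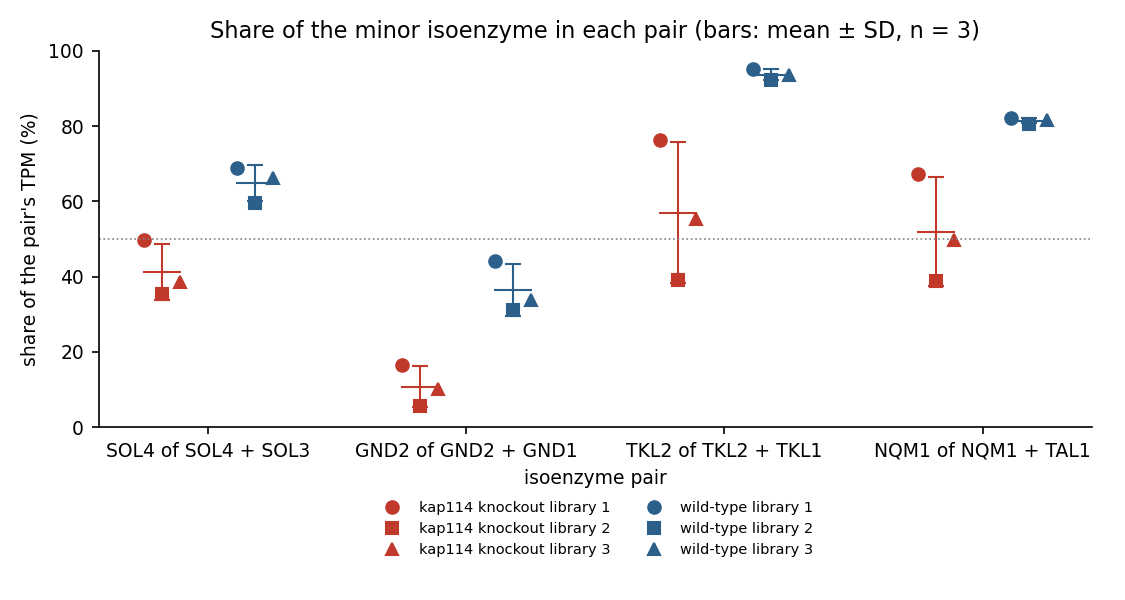
Share of the minor isoenzyme in the summed TPM of its pair, in percent, for each library (points), with mean ± SD of the 3 libraries of a strain, knockout on the left and wild type on the right; the dotted line marks equal levels. In each pair all knockout libraries lie below all wild-type libraries, and in the knockout library 1 has the highest and library 2 the lowest share. How often other gene pairs separate in this way was not counted.

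Summed over isoenzymes, the steps differed in direction. The 6-phosphogluconate dehydrogenase genes together had 719, 993 and 819 TPM in the knockout, against 368, 526 and 405 TPM in the wild type. The 6-phosphogluconolactonase genes together had 306, 372 and 348 TPM in the knockout, against 176, 204 and 186 TPM in the wild type. Both sums were higher in every knockout library, while ZWF1, the step before them, was lower.

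For transketolase the sum was 474, 375 and 392.3 TPM in the knockout, against 594, 506 and 523 TPM in the wild type. For transaldolase it was 2673, 2164 and 2205 TPM in the knockout, against 3014, 3142 and 2988 TPM in the wild type. These sums were lower in every knockout library, and the ratio of means was 0.765 for transketolase and 0.770 for transaldolase. The minor genes TKL2 and NQM1 held on average 93.7% and 81.4% of these sums in the wild type, while the major genes TKL1 and TAL1 rose. Enzyme activity was not measured. The oxidative genes as a whole summed to 1554 ± 74.2 TPM in the knockout and 1563 ± 48.3 TPM in the wild type (SD, n = 3 each), with overlapping libraries. The sums are descriptions without a test and rest on the TPM scale, whose total includes RDN37, which took a larger share of counts in the knockout.

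The order of levels also differed between the strains. In the knockout the order by mean TPM was NQM1 (1246), TAL1 (1102), GND1 (757), ZWF1 (369), TKL2 (242), SOL3 (202), TKL1 (172), SOL4 (139), GND2 (86.5) and last RKI1. Libraries of neighbours in that order overlapped except for GND1 and ZWF1, SOL4 and GND2, and GND2 and RKI1. In the wild type the order was NQM1 (2482), ZWF1 (941), TAL1 (566), TKL2 (507), GND1 (278), GND2 (155), SOL4 (122), SOL3 (66.7), TKL1 (33.8) and RKI1 (12.4), and among neighbours TAL1 and TKL2 overlapped while the others did not.

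The knockout libraries themselves were unequal. Of the 10 genes, 9 were closest to the wild-type mean in knockout library 1 and farthest from it in knockout library 2. TKL1, for example, was above the wild-type mean by 1.80, 2.85 and 2.46 in knockout libraries 1 to 3 on the log2 CPM scale (counts scaled to library size), and ZWF1 differed from it by -0.82, -1.71 and -1.45. SOL4 was the exception, at 0.38, 0.19 and 0.22, with library 1 the farthest. The same order held across all tested genes on the first principal component of log2 CPM, which took 88.0% of the variance. Knockout libraries 1 to 3 lay at -12.0, -53.0 and -42.4 on it, and wild-type libraries 1 to 3 at 43.0, 29.5 and 35.0. The share of all tested genes with this order was not counted, so the 9 of 10 is not shown to be particular to these genes. Without knockout library 1, the log2 fold change was 2.66 for TKL1, -1.58 for ZWF1, -1.40 for TKL2, -1.28 for NQM1 and -1.06 for GND2. All 10 genes were called in that fit, which called 4639 genes in all, against 3911 with all libraries.

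Other genes around the pathway were described from 6 short lists. Of 36 genes in all, each of which was tested, 28 were called by edgeR's quasi-likelihood test, against 64.3% of all tested genes. The lists were chosen with earlier results of these data known, so this comparison is a description only. Among 8 genes of the pathway and its side branches, 3 rose and 4 fell. SHB17, for sedoheptulose-1,7-bisphosphatase, which feeds the non-oxidative branch without NADPH production, had 86.4, 175 and 134 TPM in the knockout, against 30.5, 36.0 and 37.5 TPM in the wild type, and rose 4.003-fold. XKS1, for xylulokinase, rose 2.37-fold. SOL2, a relative of SOL3 that is linked to tRNA function rather than to the lactone, fell 2.02-fold.

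Genes named after their values were seen were RPE1, STB5, HXK1, GLK1, GDH3 and ALD6, and also IDP3 and POS5, whose signs changed with the processing. RPE1, for ribulose-5-phosphate epimerase, which supplies xylulose 5-phosphate to transketolase, had 94.3, 127 and 118 TPM in the knockout, against 115, 110 and 107 TPM in the wild type. The groups overlapped and RPE1 did not pass (log2 fold change 0.10 ± 0.13, SE; edgeR adjusted p = 0.526), though its adjusted p was 0.0425 without knockout library 1. STB5, the gene of the zinc cluster factor itself, was low, at 10.8 ± 0.753 TPM in the knockout and 14.1 ± 0.514 TPM in the wild type (SD, n = 3 each). It had a log2 fold change of -0.31 ± 0.10 (SE; edgeR adjusted p = 0.0280), a call that ended with upper-quartile scaling (log2 fold change -0.23, adjusted p = 0.0844) and without knockout library 3 or any 1 wild-type library (0.0564 to 0.128).

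Of 6 genes for the supply of glucose 6-phosphate and its competing uses, 4 rose and 1 fell. PGI1, for phosphoglucose isomerase, which draws glucose 6-phosphate into glycolysis, had 671, 1218 and 944 TPM in the knockout, against 147, 216 and 183 TPM in the wild type. PGI1 rose 5.46-fold while ZWF1, which draws on the same substrate, fell. HXK2, the main hexokinase on glucose, rose 6.73-fold, PGM1, a minor phosphoglucomutase, rose 4.75-fold, and HXK1, another hexokinase, rose 2.13-fold. GLK1, for glucokinase, had 1784 ± 311 TPM in the knockout and 3221 ± 368 TPM in the wild type (SD, n = 3 each), and its call was lost on leaving out any single library except knockout library 1 (edgeR adjusted p from 0.0564 to 0.102).

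Of the users of pathway products, 3 of 5 genes for phosphoribosyl pyrophosphate synthetase, which takes ribose 5-phosphate, rose and 1 fell. PRS4 rose 2.90-fold and PRS3 1.49-fold, and PRS2 fell 1.74-fold. Of 4 genes that lead from erythrose 4-phosphate to chorismate, the precursor of aromatic amino acids, 3 rose and 0 fell. ARO4, for the first enzyme of that route, had 287, 621 and 529 TPM in the knockout, against 75.2, 108 and 101 TPM in the wild type, a 5.34-fold rise. ARO2 rose 2.65-fold and ARO1 2.40-fold.

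Of 8 genes for other sources of NADP(H), 1 rose, 3 fell and 4 did not pass. IDP2, for the cytosolic NADP-dependent isocitrate dehydrogenase, had 160.5, 48.3 and 81.8 TPM in the knockout, against 417, 399 and 403 TPM in the wild type, and fell 4.01-fold. YEF1, for an NAD(H) kinase, fell 2.14-fold, and MAE1, for the mitochondrial malic enzyme, rose 1.69-fold. ALD6, for the cytosolic acetaldehyde dehydrogenase, a main source of NADPH beside ZWF1, had 2411 ± 216 TPM in the knockout and 3098 ± 200 TPM in the wild type (SD, n = 3 each). ALD6 did not pass (log2 fold change -0.29 ± 0.22, SE; edgeR adjusted p = 0.268), but had an adjusted p of 0.0132 with DESeq2.

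Among 5 genes for NADPH-dependent reductases and glutamate dehydrogenases, 3 rose and 2 fell. TRR1, for the cytosolic thioredoxin reductase, rose 2.11-fold and TRR2, for its mitochondrial counterpart, fell 1.63-fold. The glutamate dehydrogenase genes moved in opposite directions: GDH1, the main form on glucose, rose 3.29-fold, and GDH3, a form of respiratory growth, fell 2.75-fold.

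**Figure D5:**
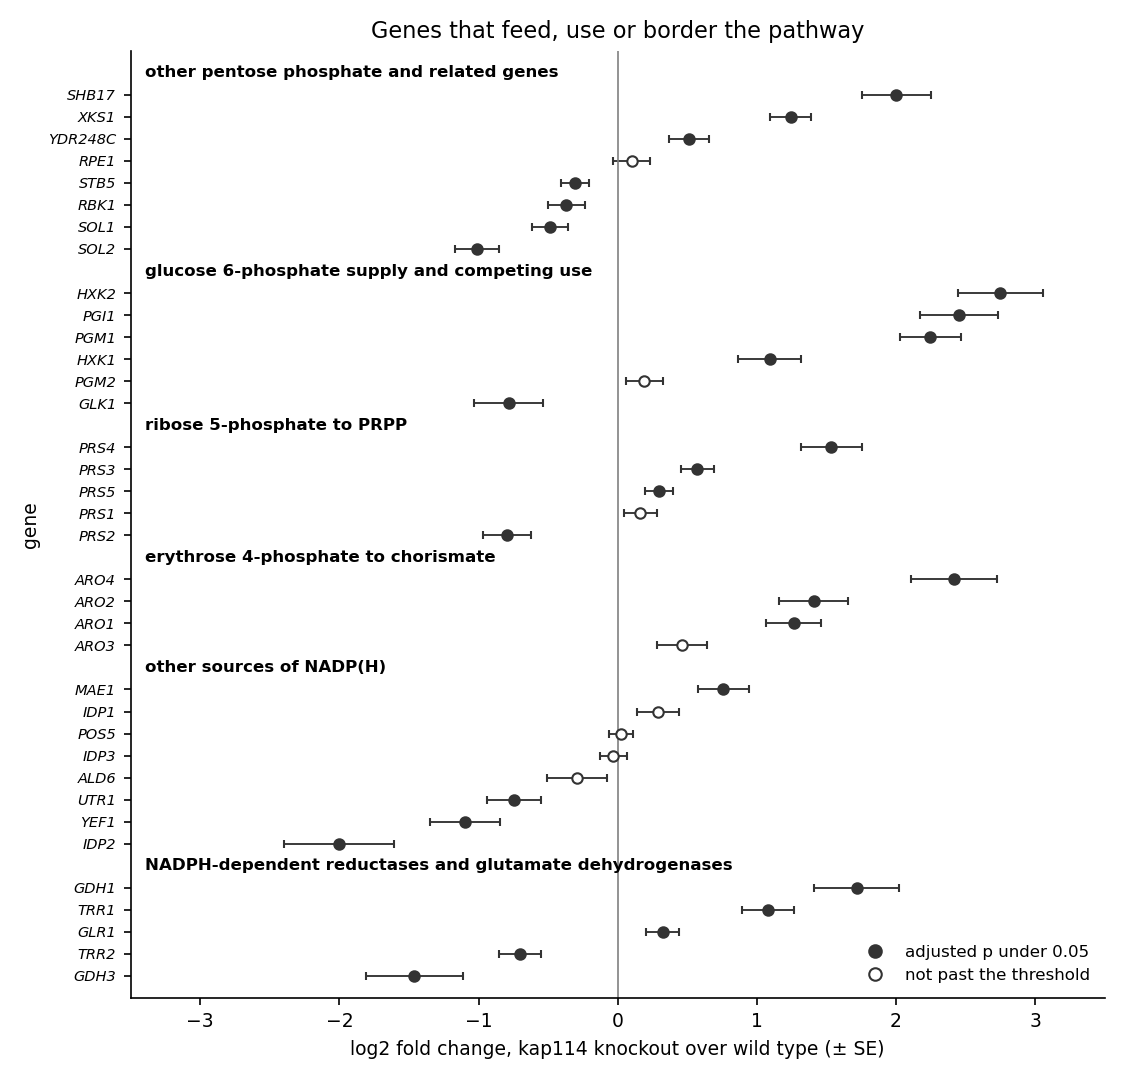
Log2 fold change ± SE, knockout over wild type, of the 36 genes around the pathway, grouped by list; filled points were called by edgeR's quasi-likelihood test and open points were not. The chorismate list has 3 genes higher and 0 lower, while each of the other lists has called genes on both sides of 0.

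Genes whose profile was most like that of the isoenzymes were looked for among the 5189 genes with a mean of at least 10 CPM, by Pearson's r of log2 CPM over the 6 libraries, as a description. In the mean profile of SOL4, GND2, TKL2 and NQM1, SOL4 runs against the rest, with r of -0.49 with GND2, -0.51 with TKL2 and -0.55 with NQM1. That mean profile was closest to RMD5 (r = 0.999), for a subunit of a ubiquitin ligase that degrades gluconeogenic enzymes, ALD3 (0.999), for an aldehyde dehydrogenase, ATG21 (0.998), FMP16 (0.998) and HFD1 (0.998), for a fatty aldehyde dehydrogenase. RMD5, ALD3, ATG21, FMP16 and HFD1 had log2 fold changes of -0.92, -1.06, -0.49, -1.09 and -0.94. The mean profile of the other 6 genes, in which ZWF1 runs against the rest, was closest to NEW1, MRT4, UTP21, UTP4 and GUA1 (r from 0.9996 to 0.9999), with log2 fold changes from 1.39 to 2.02. MRT4, UTP21 and UTP4 encode ribosome assembly factors, and GUA1 encodes GMP synthase. The 6 points fall into 2 strains and share the same libraries, so these correlations are a description only.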

How the data were processed

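Poly(A)-selected, stranded RNA libraries from cells in 1.5 M NaCl were compared, 3 of the kap114 knockout and 3 of the wild type, with groups and replicate numbers from the sample titles. The authors deposited counts, whole numbers of reads per gene without normalization, and TPM values per gene, per the file headers. The submitters' processing notes name FastQC and build R64; no source used here gives the aligner or the counting program. Of the gene names, 6190 matched the R64 reference and 99.7% of these had the same start and end. Members and lists were chosen with earlier results of these data known.

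Low genes were removed by filterByExpr with a minimum count of 10 and a minimum total of 15, and 6080 genes remained. They were tested with edgeR 4.0.16 in R 4.3.3 by its robust quasi-likelihood test after TMM scaling. P-values were adjusted over all tested genes by the Benjamini-Hochberg method, with a threshold of 0.05. The SE comes from the F statistic. A test on simulated data with 200 of 6059 genes changed recovered 89.0% of log2 changes of 1, and 3 of 192 calls were false. The simulation changed few genes and gave every gene the same spread, whereas 64.3% of tested genes were called in the data. Its rates therefore need not hold for this comparison. Alternatives were RLE, upper-quartile and total scaling, DESeq2 1.42.0, limma 3.58.1 (voom, and log2 TPM with pseudocounts of 1 and 0.1), other filters, a block for the replicate number, and fits that leave out 1 library each. Coding sequences were aligned with Biopython 1.88. Besides the 10 genes and KAP114, up to 3 called genes with the smallest p were named per list, plus the 5 most similar genes per profile. Outside this rule, RPE1, STB5, HXK1, GLK1, GDH3, ALD6, IDP3 and POS5 were named after their values were seen.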

Additional observations from a re-analysis of the deposited data

How the results depend on the processing

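Under the 17 alternatives, each of the 10 genes kept the sign of its change. Of 170 values, 147 kept their side of the threshold and 23 lost the call, all for SOL4, GND2, TKL2 and NQM1. The number of the 10 genes called higher was 5 or 6 and that called lower was 4 in every setting with all libraries. Leaving out 1 library at a time gave 1 to 4 lower, 5 to 6 higher, 20 to 31 of the 36 surrounding genes and 2819 to 4639 of all genes. Scaling by library totals only shifted the median log2 fold change of all genes to -0.13. Of 798 values for these genes, the 36 surrounding genes and KAP114, 9 changed sign, each for a gene without a call. RPE1 was at -0.042 with library totals only. IDP3 was at 0.040 with upper-quartile scaling and, when 1 library was left out, between -0.088 and 0.029. POS5 was at -0.0027 with RLE scaling and with DESeq2, -0.12 with library totals only, -0.048 and -0.049 with limma on TPM and, when 1 library was left out, between -0.00855 and 0.068. Differences in log2 ratio kept their sign without any 1 library, and ranged from -4.08 to -2.91 for TKL2 to TKL1, -2.78 to -1.92 for GND2 to GND1, -2.47 to -1.62 for NQM1 to TAL1 and -1.65 to -1.23 for SOL4 to SOL3. Same-numbered libraries deviated together with r of 0.32, 0.18 and -0.07, and the other pairings with r from -0.30 to 0.26. With 3 libraries of each strain, such values cannot tell whether the numbers pair the libraries. The numbers are those in the titles, 1 to 3, while the library names number the knockout libraries 3 to 5, and the check and the block rest on the titles. With the replicate number as a block, 3916 genes were called, among them 5 of the 10 higher and 4 lower, with SOL4 lost at an edgeR adjusted p of 0.0636, and the permutation test within pairs gave p = 0.25 for each ratio, the smallest it can give. Depth was at least 275 counts for each of the 10 genes in every library.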
